A study of Mus musculus with 35 samples.

Results

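The genes described here are both corticosteroid receptors and a set of genes that handle or answer stress hormones: Nr3c1, Nr3c2, Hsd11b1, Fkbp5, Sgk1, Tsc22d3, Per1 and Zbtb16. They were chosen by their known function, with earlier results of these data known. Matching by symbol to Ensembl identifiers gave 8 of the 52636 genes in the count files. RNA was sequenced from an anterior and a posterior portion of the amygdala of 19 female mice, cut out of brain sections by laser capture after a cognitive judgement bias test, which scores how a mouse responds to ambiguous cues. The 35 libraries comprised 16 anterior and 19 posterior ones, and both portions were sequenced in 16 of the mice (6 C57BL/6J and 10 B6D2F1N). C57BL/6J is an inbred strain and B6D2F1N a hybrid of the C57BL/6 and DBA/2 backgrounds.

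Mice of both strains lived in standard cages or in enriched housing, in which they could use a playground for 1 h per day. Training for the test began on postnatal day 70 and the housing treatment on postnatal day 77, and all mice, the controls included, went through training and test. By the study's methods, food was rationed during the experimental phase and the light cycle was reversed. Brains were taken some days after the last test, not directly after it. In the anterior portion, there were 4 standard and 2 enriched C57BL/6J mice and 5 standard and 5 enriched B6D2F1N mice. In the posterior portion, there were 4 standard and 4 enriched C57BL/6J mice and 5 standard and 6 enriched B6D2F1N mice. The labels call 4 mice optimists and 5 mice pessimists by their test scores and give the other 10 mice no such class. Mice are named below by strain, housing and number.

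Corticosterone, the main glucocorticoid of mice, binds a mineralocorticoid receptor with high affinity and a glucocorticoid receptor with lower affinity, so that the latter is occupied mainly at the daily peak and during stress. Both receptors are transcription factors that are held in the cytoplasm by chaperones, move to the nucleus when hormone binds and act on DNA at glucocorticoid response elements, or through other factors. In the amygdala, which processes emotionally salient stimuli, both receptors are expressed and glucocorticoids are known to modulate the storage of aversive memories.

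Of the 8 genes, 6 had at least 1 entry in the RefSeq promoter table of GRCm38.p6, with 14 windows in all that span 250 bases before and 50 bases after a start site. The other genes were Nr3c1 and Zbtb16. The full palindromic glucocorticoid response element, which is AGAACA, 3 bases of any kind and TGTTCT, was searched on both strands and was held by 3 of all 32851 windows, or 0.00913%. A Sgk1 window was 1 of these 3. Sgk1 (serum- and glucocorticoid-regulated kinase) is a textbook direct target of the glucocorticoid receptor, and the part of that window before the start site, on the plus strand at chr10:21993640-21993889 (GRCm38.p6), is shown because it holds this element, in capitals.
Sgk1: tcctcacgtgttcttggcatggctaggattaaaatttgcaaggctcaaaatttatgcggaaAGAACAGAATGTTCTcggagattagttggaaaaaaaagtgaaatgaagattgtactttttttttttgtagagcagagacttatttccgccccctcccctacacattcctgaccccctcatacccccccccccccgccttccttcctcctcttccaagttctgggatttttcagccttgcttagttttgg
The match began at -189 from the start site and lay at chr10:21993701-21993715. Sgk1 had 6 windows, and the counts per gene do not tell which start site was used. The half-site AGAACA, which is part of the full element, was found on either strand in 4 of the 14 windows, 3 of Sgk1 and 1 of Tsc22d3, against 19% of all windows.

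Per1 is both a core clock gene and a glucocorticoid target, and its window on the plus strand at chr11:69098699-69098948 is shown for the E-box, CACGTG, the palindrome that the clock factors CLOCK and BMAL1 bind, in capitals.
Per1: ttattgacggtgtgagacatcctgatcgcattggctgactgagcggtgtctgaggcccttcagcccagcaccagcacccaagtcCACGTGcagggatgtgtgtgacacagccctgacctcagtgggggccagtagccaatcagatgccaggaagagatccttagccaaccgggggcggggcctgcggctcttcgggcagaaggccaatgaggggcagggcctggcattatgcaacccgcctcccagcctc
CACGTG was found in 3 of the 14 windows, 1 each of Per1, Fkbp5 and Sgk1, and in 7.15% of all windows. In the Sgk1 window it lay near the far end, outside the response element. The cAMP response element TGACGTCA was in 0 of the 14 windows and in 1.79% of all windows. These matches describe the letters of short windows only, and response elements outside them were not searched.

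The libraries held between 16938534 and 27352623 counts on genes, and each of the 8 genes had at least 105 counts in every library. With 1 library per mouse in each portion, technical error and differences between mice were not separated. Markers of excitatory and inhibitory neurons were present in all libraries, with summed levels of 1112 to 5576 and 534 to 1674 CPM (the count scaled to the effective library size). Markers of choroid plexus and ependymal cells, which line the ventricles, summed to 138 to 14506 CPM in posterior libraries and to 8.73 to 53.7 CPM in anterior libraries other than that of B6D2F1N enriched 1, which had 972 CPM. Xist, which is transcribed from the inactive X chromosome of females, had 0 counts in both libraries of B6D2F1N standard 1 and 54.8 to 202 CPM in all others, while no Y-linked gene of the 4 examined exceeded 1 count in any library. The section positions that the study's methods give for both portions run against the anatomical meaning of the names. Which of them the labels follow was not tested, and exchanged labels would turn the sign of every portion difference below.

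All 8 are protein-coding genes, placed here by the GENCODE M21 annotation of GRCm38. Nr3c1 (ENSMUSG00000024431) spans bases 39410545 to 39519421 of the minus strand of chromosome 18, and Nr3c2 (ENSMUSG00000031618) bases 76899442 to 77245012 of the plus strand of chromosome 8. Hsd11b1 (ENSMUSG00000016194) lies on the minus strand of chromosome 1 from 193221634 to 193264075, Fkbp5 (ENSMUSG00000024222) on that of chromosome 17 from 28399094 to 28517527, and Zbtb16 (ENSMUSG00000066687) on that of chromosome 9 from 48654297 to 48836222. Sgk1 (ENSMUSG00000019970) lies on the plus strand of chromosome 10 from 21882184 to 21999903 and Per1 (ENSMUSG00000020893) on that of chromosome 11 from 69095217 to 69109960, while Tsc22d3 (ENSMUSG00000031431) is X-linked, on the minus strand from 140539528 to 140600659.

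Per kilobase of exon, which allows comparison between genes, Tsc22d3 and Sgk1 had the highest levels of the 8 genes. Tsc22d3, which encodes the anti-inflammatory protein GILZ, had 43.6 ± 11.9 CPM per kb (SD over 35 libraries) and Sgk1 27.1 ± 9.56 CPM per kb. Hsd11b1, with 12.1 ± 6.69 CPM per kb, and Nr3c1, with 11.9 ± 3.30 CPM per kb, formed an intermediate pair that differed by less than the spread between libraries. Zbtb16 (4.06 ± 1.57), Nr3c2 (3.75 ± 1.94), Per1 (3.24 ± 1.04) and Fkbp5 (2.44 ± 0.677 CPM per kb) were lowest, and neighbours in this order also lay within that spread. Even Fkbp5 exceeded 71.9% of the 35580 genes with at least 1 count. Of the 8 genes, only Nr3c2 shares exon bases with another gene (247 bases with Gm10649 on the opposite strand), and the strand setting of the counting is not given in the sources used here.

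**Figure D1:**
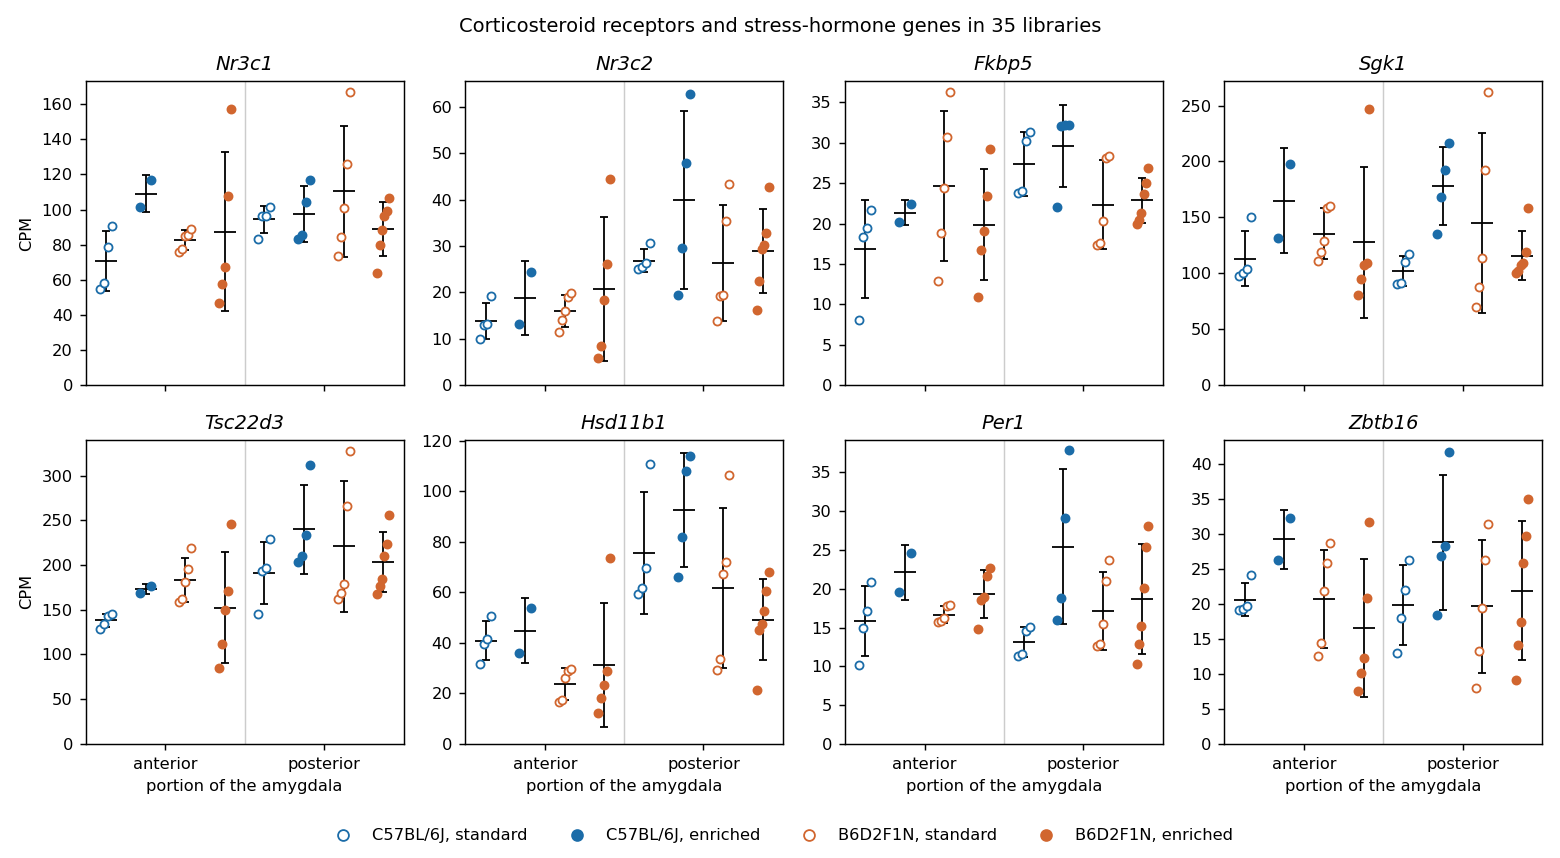
Level in CPM (y axis) of each of the 8 genes in every library, by portion (x axis), strain (color) and housing (open, standard; filled, enriched). Points are libraries, black dashes group means and bars SD. The posterior groups of Hsd11b1 have means between 49.2 and 92.5 CPM and the anterior ones between 23.8 and 44.9 CPM, and 1 anterior B6D2F1N enriched library stands high for Sgk1 (247 CPM) and Hsd11b1 (73.7 CPM).

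The first comparison asked how the anterior and the posterior portion of the same mouse differ. Hsd11b1 and Nr3c2 were higher in the posterior portion. Hsd11b1 encodes the enzyme that regenerates active corticosterone from its inert form inside cells, and it was higher by about the same factor in both strains. Nr3c2, the high-affinity mineralocorticoid receptor, passed the test in C57BL/6J and not in B6D2F1N, while Nr3c1, the glucocorticoid receptor, passed it in neither strain. Of the 8 genes, 2 were called higher and 0 lower in C57BL/6J, where 3.64% of all 25751 genes tested were called (1.54% higher and 2.1% lower), and 1 was called higher and 0 lower in B6D2F1N, where 4% of 27761 genes were called (1.62% higher and 2.37% lower).

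In C57BL/6J, anterior levels of Hsd11b1 were 31.6, 40.7 and 53.9 CPM (lowest, median and highest of 6 mice) and posterior levels 59.3, 75.9 and 114 CPM. The ranges did not overlap, and the posterior library was higher in 6 of 6 mice, by 1.38-fold to 2.80-fold. The difference was 0.94 on the log2 scale (SE 0.173, adjusted p = 0.00332, edgeR's quasi-likelihood test with the mouse as a block, Benjamini-Hochberg adjustment). In B6D2F1N, the anterior levels of 10 mice were 12.1, 24.7 and 73.7 CPM and the posterior ones 21.4, 56.5 and 106 CPM. The ranges overlapped, but 9 of 10 mice were higher in the posterior portion, and the log2 difference was 1.05 (SE 0.231, edgeR adjusted p = 0.0117). The mouse that went the other way was B6D2F1N enriched 1, with an anterior level of 73.7 CPM and a posterior level of 60.5 CPM, and without it the difference was 1.23 (edgeR adjusted p = 0.00434). Without B6D2F1N standard 1, the mouse lacking Xist counts, it was 0.97 (edgeR adjusted p = 0.0347). In bulk tissue, fewer cells of a type and less RNA per cell cannot be told apart, for this gene and for all others below.

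In the 6 C57BL/6J mice, anterior levels of Nr3c2 were 10.1, 13.1 and 24.4 CPM and posterior levels 25.0, 28.0 and 62.7 CPM. The ranges did not overlap, and each of the 6 mice was higher in the posterior portion, by 1.21-fold to 4.79-fold. The log2 difference was 1.06 (SE 0.248, edgeR adjusted p = 0.0194). The call rested on single mice: without C57BL/6J enriched 1, standard 1 or standard 3, the difference was 0.84, 1.01 or 1.04 and the edgeR adjusted p was 0.0705, 0.0802 or 0.0652. In B6D2F1N, the anterior levels were 5.98, 17.1 and 44.5 CPM and the posterior ones 13.9, 26.0 and 43.5 CPM, with overlap. Again 9 of 10 mice were higher in the posterior portion, with a log2 difference of 0.67 (SE 0.253, edgeR adjusted p = 0.178), and the exception was again B6D2F1N enriched 1, at 44.5 CPM against 22.6 CPM. With single mice left out, the difference lay between 0.52 and 0.88 and the edgeR adjusted p between 0.0462 and 0.344. Only 1 of these 10 fits passed, the one without B6D2F1N enriched 1. That mouse was singled out because it went the other way, so this p is not an unbiased test. The difference between the strains in this portion effect was -0.39 on the log2 scale for Nr3c2 (SE 0.390) and 0.11 for Hsd11b1 (SE 0.324), with an edgeR adjusted p of 1 for both. None of the 29437 genes tested for such a difference was called by edgeR or DESeq2, and 0 of the 8 had an unadjusted p under 0.05, against 2.96% of all genes. The 8 genes also gave 0 calls (edgeR and DESeq2) where the portion difference was compared between housings, with the lowest p for Nr3c1 (-0.44, SE 0.236, unadjusted p = 0.0706 by edgeR, adjusted p = 1).

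**Figure D2:**
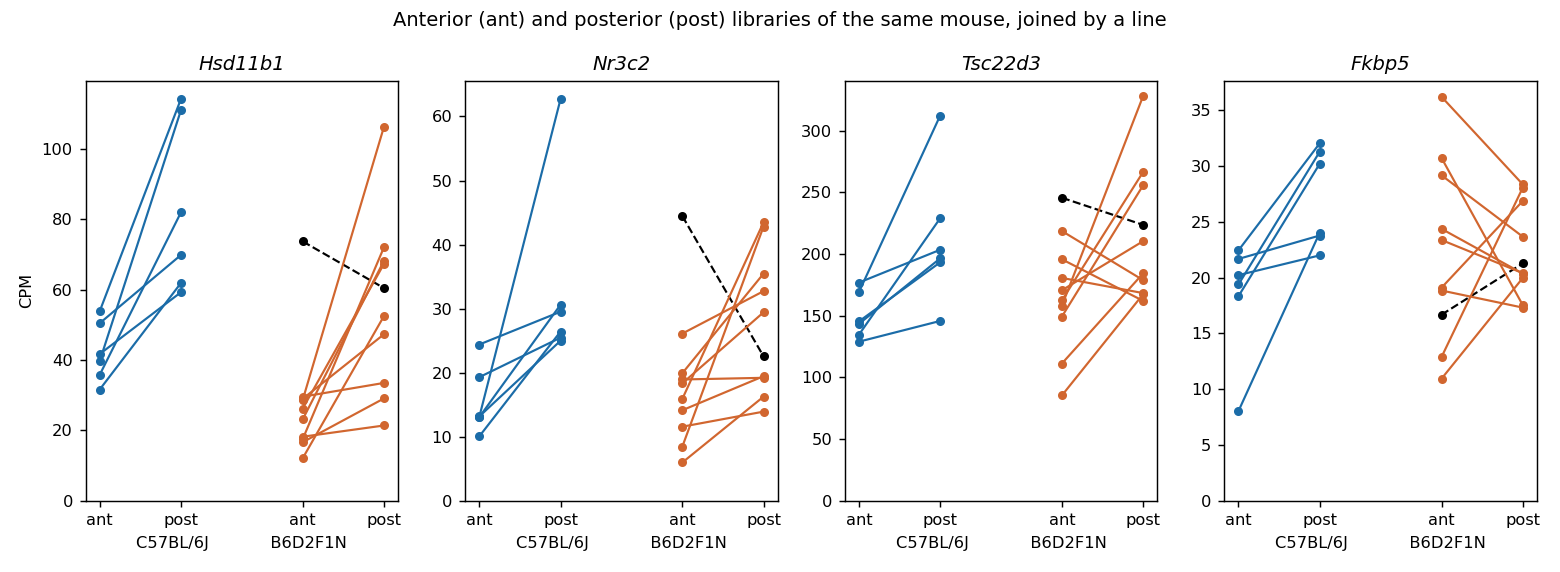
Level in CPM (y axis) in the anterior (ant) and posterior (post) library of each mouse, joined by a line, for Hsd11b1, Nr3c2, Tsc22d3 and Fkbp5 in C57BL/6J (6 mice, left) and B6D2F1N (10 mice, right). Lines of Hsd11b1 and Nr3c2 rise in 15 of 16 mice; the dashed black line is B6D2F1N enriched 1, the exception for both genes.

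Tsc22d3 and Fkbp5 were also higher in the posterior portion in 6 of 6 C57BL/6J mice without passing the test. Tsc22d3 ranged from 129 to 177 CPM in anterior and from 146 to 312 CPM in posterior libraries, a median 1.35-fold ratio and a log2 difference of 0.47 (SE 0.151, edgeR adjusted p = 0.112, DESeq2 adjusted p = 0.0306). In B6D2F1N it was higher in 6 of 10 mice, with a log2 difference of 0.37 (SE 0.158, edgeR adjusted p = 0.259). Fkbp5 encodes a co-chaperone that lowers the hormone affinity of the glucocorticoid receptor and is itself induced through it. Its log2 difference was 0.61 (SE 0.224, edgeR adjusted p = 0.187) in C57BL/6J, with anterior levels of 8.04, 19.8 and 22.5 CPM and posterior levels of 22.0, 27.1 and 32.0 CPM. In B6D2F1N, 4 of 10 mice were higher and 6 lower (log2 difference 0.07, SE 0.194). In all, 4 of the 8 genes moved the same way in every C57BL/6J mouse, against 8.5% of all genes, and 0 of the 8 did so in every B6D2F1N mouse, against 2.33% of all genes.

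The remaining genes had log2 differences within 2 SE of 0 in both strains. Nr3c1 differed by 0.16 (SE 0.186) in C57BL/6J and 0.23 (SE 0.149) in B6D2F1N, so that differences from -0.21 to 0.53 and from -0.07 to 0.53 lie within 2 SE. Sgk1 differed by -0.02 (SE 0.163) and -0.05 (SE 0.185), Per1 by -0.08 (SE 0.227) and -0.05 (SE 0.192), and Zbtb16, a transcriptional repressor also called PLZF, by -0.01 (SE 0.219) and 0.16 (SE 0.251). A fit of all 16 mice, chosen after the data were seen, called Hsd11b1 (1.02, edgeR adjusted p = 7.29e-05), Nr3c2 (0.83, edgeR adjusted p = 0.00529) and Tsc22d3 (0.42, edgeR adjusted p = 0.016), with 8.6% of all genes called.

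Several marker lists moved with the portion. Of 10 choroid plexus and ependymal markers, 5 were called higher in the posterior portion in C57BL/6J and 9 in B6D2F1N. Of 10 astrocyte markers, 5 were called higher in C57BL/6J, among them Gfap (1.38) and Gja1 (0.73), and in B6D2F1N 2 were called higher (Agt, 2.41, and Gfap, 1.93) and Slc1a2 lower (-0.66). Of 7 excitatory neuron markers, 3 (Tbr1, Neurod6 and Slc17a7) were called lower and Slc17a6 higher in each strain, while 0 of 10 oligodendrocyte markers were called in either. Meningeal fibroblast markers summed to 82.9 to 185 CPM in anterior and 133 to 1920 CPM in posterior libraries, and 1 of 8, Dcn, was called higher in each strain (5.80 and 2.97). Most of the rise in the sum was Dcn, with means of 26.4 CPM in anterior and 739 CPM in posterior libraries. The means of the others were 15.3 and 38.0 CPM (Igf2), 4.59 and 12.1 CPM (Lum) and 1.52 and 2.95 CPM (Col1a1). They were 7.96 and 8.21 CPM for Col1a2, 3.40 and 4.54 CPM for Ogn, 66.1 and 74.1 CPM for Pdgfra and 8.85 and 7.01 CPM for Slc6a13. Of 8 inhibitory neuron markers, Vip was called lower in both strains (-0.96 and -0.87) and Pvalb in C57BL/6J (-1.42). Of 10 microglial markers, Trem2 (-0.63) and Aif1 (-0.90), and of 8 pericyte and smooth muscle markers, Vtn (-0.60) and Rgs5 (-0.55), were called lower in B6D2F1N and 0 in C57BL/6J. Of 8 striatal projection neuron markers, Drd1 was lower in C57BL/6J (-1.28) and Tac1 higher in B6D2F1N (1.17), and 0 of 10 endothelial markers were called. Over the 16 mice, the portion difference of Hsd11b1 correlated with that of the summed choroid plexus and ependymal markers with r = 0.29 (Spearman's rho 0.14, permutation p = 0.277) and that of Nr3c2 with r = 0.20 (rho 0.071, permutation p = 0.447), strain means removed. Neither passed the adjustment over 80 such relations (adjusted p = 0.691 and 0.795), and the part of these cells in the portion differences was not otherwise tested.

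The portion differences that did follow a marker list were those of Sgk1 and Tsc22d3, with oligodendrocyte markers. Mice with more oligodendrocyte marker RNA in the posterior than in the anterior library had more Sgk1 there too (r = 0.79, rho 0.79, permutation p = 0.00033, adjusted p = 0.0132 over 80 relations, 16 mice). The same held for Tsc22d3 (r = 0.78, rho 0.76, permutation p = 0.0003, adjusted p = 0.0132). Without the 2 mice farthest from the median, r was 0.63 and 0.66. Within the 10 B6D2F1N mice r was 0.87 and 0.81, and within the 6 C57BL/6J mice 0.17 and 0.51.

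Other genes of the same pathways were read against the 3.64% (C57BL/6J) and 4% (B6D2F1N) of all genes called between portions. Of 36 other glucocorticoid target genes tested in C57BL/6J, 2 were called higher in the posterior portion, Gjb6 (0.93), which encodes an astrocyte connexin and was also on the astrocyte list, and Mfsd2a (0.80), a lipid transporter, and Cdkn1a (-1.18), a cell cycle inhibitor, was lower. Their median log2 difference was 0.13, against 0.01 for all genes. In B6D2F1N, 0 of 37 were called by edgeR, with a median of 0.11 against 0.15 for all genes. Of 10 genes of hormone handling, 0 were called in C57BL/6J, and in B6D2F1N Abcb1a, the P-glycoprotein that exports glucocorticoids at the blood-brain barrier, was lower (-0.67, SE 0.174, edgeR adjusted p = 0.0341). Of 17 other clock genes, Ciart (-0.76) was lower in C57BL/6J and 0 were called in B6D2F1N, and of 20 chaperones and cofactors of the receptor 0 were called in either strain. Among 14 immediate early genes, which mark recent neuronal activity, Egr1 was lower in both strains (-1.31 and -1.26), Dusp6 (-1.07) was lower and Jun (1.43) higher in C57BL/6J, and Arc (-1.73) was lower in B6D2F1N. The median of this list was -0.68 in C57BL/6J and -0.77 in B6D2F1N. Between strains in the enriched posterior libraries, Egr1 was the one gene called from these 5 lists (-1.24, SE 0.243, edgeR adjusted p = 0.0328), and between housings in the C57BL/6J posterior portion edgeR called 0.

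The second comparison asked how B6D2F1N differ from C57BL/6J in each housing and portion. None of the 8 genes passed edgeR's or DESeq2's test in any of the 4 comparisons, in which 0.37, 0.373, 0.0639 and 0.394% of all genes were called by edgeR (standard anterior, standard posterior, enriched anterior and enriched posterior). At an unadjusted p under 0.05 by edgeR there were 2, 0, 0 and 2 of the 8 genes, against 9, 10.3, 4.33 and 9.11% of all genes. The gene nearest to a call was Hsd11b1, whose mean was lower in B6D2F1N in all 4 comparisons. In the standard anterior libraries it had 31.6, 39.7, 41.7 and 50.5 CPM in C57BL/6J and 16.7, 17.6, 26.2, 28.7 and 29.6 CPM in B6D2F1N, without overlap, and the log2 difference was -0.79 (SE 0.230, edgeR adjusted p = 0.344). In the enriched posterior libraries it had 66.0, 82.0, 108 and 114 CPM in C57BL/6J and 21.4 to 68.2 CPM in 6 B6D2F1N mice, with a log2 difference of -0.92 (SE 0.266, edgeR adjusted p = 0.283). The differences were smaller in the standard posterior libraries (-0.27, SE 0.339) and the enriched anterior ones (-0.51, SE 0.550).

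With both housings in 1 fit, Hsd11b1 was at -0.68 (SE 0.285, edgeR adjusted p = 0.568) in the anterior and -0.62 (SE 0.233, edgeR adjusted p = 0.292) in the posterior portion, and 0 of the 8 genes were called beside 0.615% and 0.858% of all genes. Without B6D2F1N enriched 1, whose anterior library was the highest of its strain for Hsd11b1, the anterior difference was -0.91 (edgeR adjusted p = 0.0424). The mouse was singled out for that level, so this p is not an unbiased test either. In the standard anterior libraries, Tsc22d3 also did not overlap between the strains, with 129 to 145 CPM in C57BL/6J and 158 to 219 CPM in B6D2F1N and a log2 difference of 0.40 (SE 0.163, edgeR adjusted p = 0.539). These were 2 of the 8 genes, against 3.31% of all genes without overlap in that comparison. In the other comparisons of the strains 0 of the 8 were without overlap, against 3.45% (standard posterior), 8% (enriched anterior) and 2.18% (enriched posterior) of all genes. The summed oligodendrocyte markers moved with the strain in the enriched posterior libraries, at 18363 to 28721 CPM in C57BL/6J and 7123 to 16958 CPM in B6D2F1N, with 10 of 10 markers below 0 (median -0.87) and 0 called, and in the standard anterior libraries they were at 8275 to 10825 and 5874 to 15614 CPM. In the enriched posterior libraries, Sgk1 was at 135 to 217 CPM in C57BL/6J and 100.2 to 158 CPM in B6D2F1N (log2 difference -0.63, SE 0.192, edgeR adjusted p = 0.337), and all 8 genes had negative differences there (median -0.43, against 0.03 for all genes). The part of the oligodendrocyte markers in these differences was not tested.

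**Figure D3:**
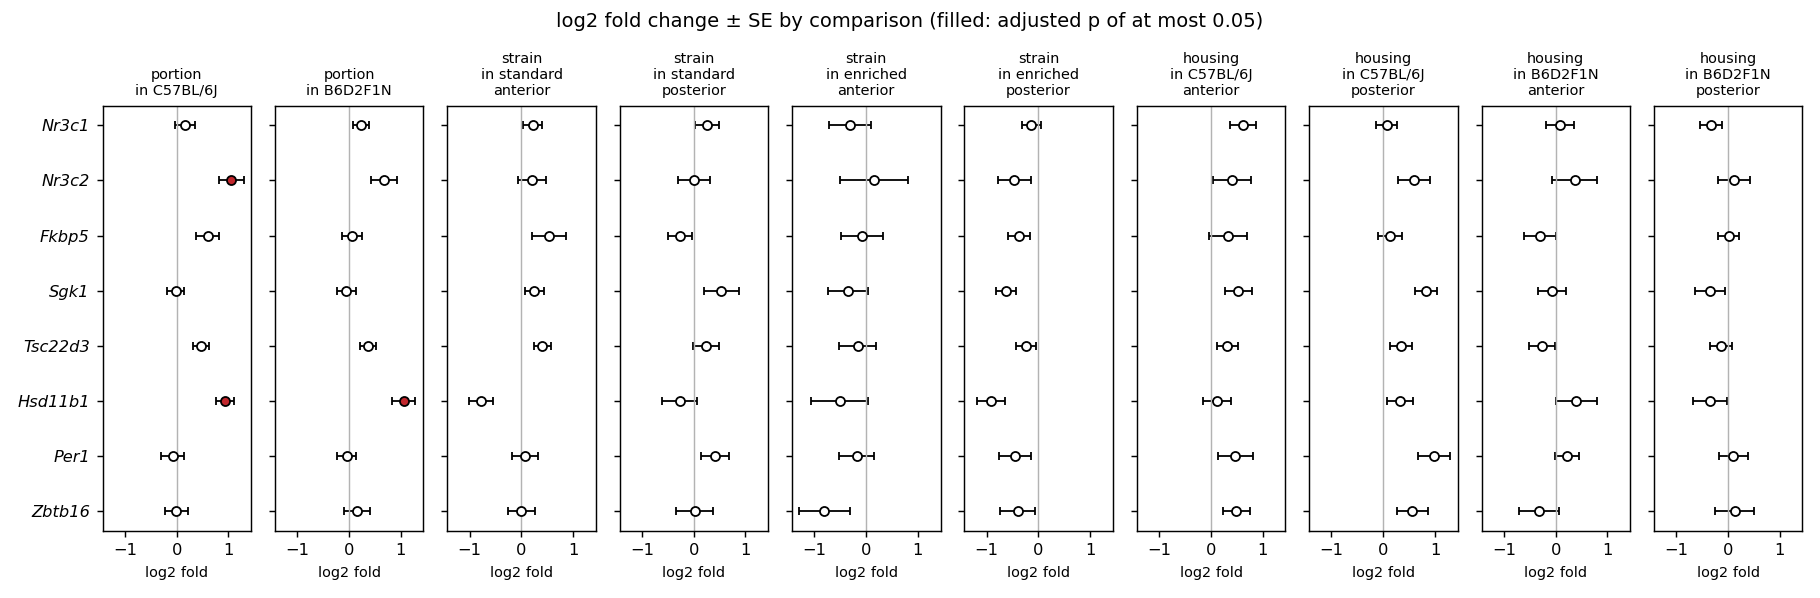
Log2 difference ± SE (x axis, edgeR) of each of the 8 genes (y axis) in 10 comparisons: posterior minus anterior within each strain, B6D2F1N minus C57BL/6J within housing and portion, and enriched minus standard within strain and portion. Filled points passed an adjusted p of 0.05; these are Hsd11b1 (0.94 and 1.05) in both portion comparisons and Nr3c2 (1.06) in that of C57BL/6J.

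The third comparison asked what enriched housing changed. None of the 8 genes was called by edgeR in any of the 4 comparisons within strain and portion, where 0 genes were called in 3 of them and 4 of 24526 genes (0.0163%) in the C57BL/6J posterior portion. At an unadjusted p under 0.05 by edgeR there were 1 and 2 of the 8 genes in the anterior and posterior portion of C57BL/6J, against 6.2% and 10.3% of all genes, and 0 in both of B6D2F1N, against 6.3% and 6.59%. DESeq2 called 1 of the 8, Sgk1 in the C57BL/6J posterior portion. Of the 24526 genes that entered this comparison, DESeq2 called 319 and edgeR 4. The comparisons of housing and strain share libraries, since the standard and enriched C57BL/6J mice enter both. In the C57BL/6J posterior portion, Sgk1 had 90.7, 91.3, 109.9 and 117 CPM in the standard mice. The enriched mice had 135, 169, 192 and 217 CPM. The groups did not overlap, and the log2 difference was 0.82 (SE 0.212, unadjusted p = 0.00152, edgeR adjusted p = 0.215, DESeq2 adjusted p = 0.0162). With single mice left out, it stayed between 0.71 and 0.94 with edgeR adjusted p values between 0.114 and 0.505. The summed oligodendrocyte markers did not overlap either, at 8406 to 13299 CPM in the standard and 18363 to 28721 CPM in the enriched mice. All 10 of these markers had positive differences (median 0.96) and Mbp was called, and their part in the difference of Sgk1 was not tested.

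Per1 was the other gene whose groups did not overlap in the C57BL/6J posterior portion, with 11.3, 11.5, 14.6 and 15.1 CPM in the standard mice and 16.0, 18.8, 29.1 and 37.8 CPM in the enriched mice (log2 difference 0.98, SE 0.305, edgeR adjusted p = 0.348). These 2 of 8 genes compare with 4.94% of all genes without overlap. All 8 genes had positive log2 differences there, from 0.06 for Nr3c1 to 0.98, with a median of 0.46 against 0.02 for all genes tested. Clock genes other than Per1 had a median of 0.03 and immediate early genes one of 0.59. In the anterior portion of C57BL/6J, where the enriched group had 2 mice, the 8 differences were again positive, with a median of 0.44. Nr3c1 was at 54.7 to 90.8 CPM in standard and 101.5 and 116.7 CPM in enriched mice (log2 difference 0.61, SE 0.253, edgeR adjusted p = 0.789). Nr3c1, Tsc22d3 and Zbtb16 did not overlap, 3 of 8 genes against 15.3% of all genes. Summed microglial markers (993 to 1311 CPM in standard and 896 and 912 CPM in enriched mice), endothelial markers (583 to 939 and 552 and 524 CPM) and choroid plexus and ependymal markers (8.73 to 15.7 and 32.9 and 15.8 CPM) did not overlap there either, and the enriched mouse 1 had 25070 CPM of oligodendrocyte markers against 8275 to 10825 CPM in the standard mice. The part of these markers was not tested. Without the enriched mouse 1 the difference of Hsd11b1 was -0.20, and without the enriched mouse 3 that of Nr3c2 was -0.077, each then resting on 1 enriched mouse.

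In B6D2F1N, the differences between housings were centred near 0, with medians of 0.00 in the anterior and -0.06 in the posterior portion, and 0 of the 8 genes were without overlap in either, where 0.483% and 0.423% of all genes were. Sgk1 was at -0.08 (SE 0.271) and -0.35 (SE 0.290). The strain difference in the housing effect of Sgk1 in the posterior portion was -1.15 on the log2 scale (SE 0.393, unadjusted p = 0.0075, edgeR adjusted p = 0.491), and that of Per1 was -0.86 (SE 0.426, edgeR adjusted p = 0.614). None of the 27871 genes was called by edgeR for this interaction, and 15 were by DESeq2, with none of the 8 among them. Over both strains in 1 fit, 0 of the 8 genes and 0% of all genes were called in either portion by edgeR, and the largest of the 8 differences in the posterior portion was that of Per1 (0.47, SE 0.226, edgeR adjusted p = 0.587).

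The fourth comparison set optimists against pessimists, with terms for strain and housing. All 4 optimists were in standard housing, and of the pessimists only B6D2F1N standard 1 was. The estimate therefore rests on that mouse, which is the one with 0 Xist counts in both libraries. Apart from it, bias class and housing cannot be told apart. None of the 8 genes was called by edgeR or DESeq2, beside 0.00414% (anterior) and 0.00396% (posterior) of all genes by edgeR. The one gene of the 8 with an unadjusted p under 0.05 (against 3.5% of all genes) was Hsd11b1 in the posterior portion, at 29.1, 33.5, 59.3 and 72.1 CPM in optimists and 21.4, 60.5, 106, 108 and 114 CPM in pessimists (log2 difference of optimists minus pessimists -1.36, SE 0.558, edgeR adjusted p = 1). The groups overlapped, with means of 48.5 and 82.1 CPM, and the mouse that links the housings had 106 CPM. Without the terms for strain and housing, the log2 difference was -0.74 (edgeR adjusted p = 0.937).

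Within 1 housing and strain, classes could be set side by side only as values. In the posterior portion of the 4 enriched C57BL/6J mice, the 2 pessimists had 114 and 108 CPM of Hsd11b1 and the 2 mice without a class 82.0 and 66.0 CPM. Nr3c2 had 62.7 and 48.0 CPM in the pessimists and 29.5 and 19.5 CPM in the others, and Per1 37.8 and 29.1 CPM against 18.8 and 16.0 CPM. Sgk1, with 217 and 192 CPM against 169 and 135 CPM, and Zbtb16, with 41.7 and 28.3 CPM against 26.9 and 18.4 CPM, had the same order, while Nr3c1, Fkbp5 and Tsc22d3 did not. Summed oligodendrocyte markers had this order too, with 22653 and 28721 CPM against 18363 and 18612 CPM, and their part was not tested. A comparison of 2 against 2 mice cannot reach a permutation p of 0.05 and was not tested. The share of all genes with such an order was not computed, so whether it is particular to these genes is not known. Several of them were also correlated with each other over the posterior libraries, as described below. In enriched B6D2F1N, pessimists 1 and 2 had 60.5 and 21.4 CPM of Hsd11b1 in the posterior portion, on either side of the 4 mice without a class except for 1 at 68.2 CPM.

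Relations between levels over mice were computed after the data had been seen. Levels of some of the genes were correlated between mice. In the posterior portion, with strain and housing means removed, 28 of 28 pairs of the 8 genes had a positive Pearson's r over 19 mice (median 0.45), and 7 pairs passed an adjusted p of 0.05 by Pearson's r and by Spearman's rho (permutation tests adjusted over the 56 pairs of both portions). The same shares over pairs of other genes were not computed, so whether such correlation is particular to the 8 genes was not tested. The closest pair was Per1 and Zbtb16 (r = 0.83, rho 0.82, permutation p = 2e-05, adjusted p = 0.00112), with 0.84 without the 2 farthest mice, 0.75 within C57BL/6J and 0.87 within B6D2F1N. In the anterior portion the same pair had r = 0.12 over 16 mice. Sgk1 and Tsc22d3 were close in both portions, with r = 0.75 (rho 0.65, permutation p = 0.00023, adjusted p = 0.00644) in the posterior and 0.70 (rho 0.50, permutation p = 0.00496, adjusted p = 0.0309) in the anterior portion, although within C57BL/6J the posterior r was 0.14. Nr3c1 and Hsd11b1 were the other pair that passed in the anterior portion (r = 0.74, rho 0.58, permutation p = 0.00277, adjusted p = 0.0309), and had r = 0.52 in the posterior portion. Both anterior pairs passed by Pearson's r only. Nr3c1 and Fkbp5 had r = 0.69 in the posterior (rho 0.65, adjusted p = 0.0153) and -0.36 in the anterior portion.

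**Figure D4:**
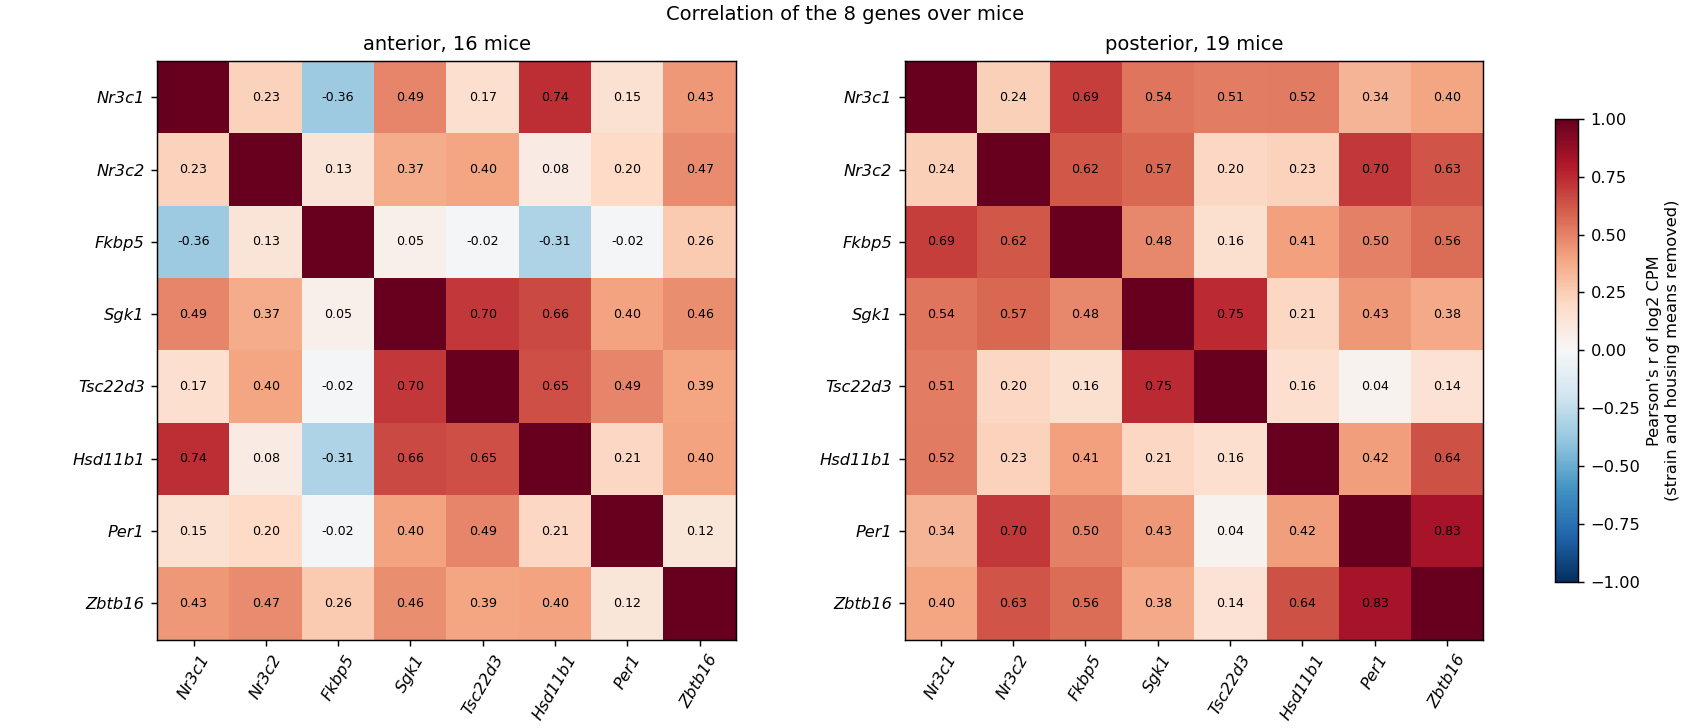
Pearson's r of log2 CPM between each pair of the 8 genes (both axes) over 16 anterior and 19 posterior libraries, 1 per mouse, with strain and housing means removed. Red squares are positive and blue negative; all 28 posterior pairs are positive, and 24 of 28 anterior ones.

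The abundance of glial markers moved with several of the genes. Levels of Sgk1, Hsd11b1 and Nr3c1 rose with the summed oligodendrocyte markers in both portions, with strain and housing means removed. In the posterior portion r was 0.67 for Sgk1 (rho 0.64, permutation p = 0.00213, adjusted p = 0.0395 over 160 relations of 8 genes with 10 lists in 2 portions), 0.67 for Hsd11b1 (rho 0.70, permutation p = 0.00161, adjusted p = 0.0368) and 0.78 for Nr3c1 (rho 0.57, permutation p = 0.00019, adjusted p = 0.0152). In the anterior portion r was 0.80, 0.74 and 0.72 in the same order (rho 0.58, 0.59 and 0.46, permutation p = 0.00072, 0.00222 and 0.0027, adjusted p = 0.0253, 0.0395 and 0.0414). Without the 2 farthest mice these values were 0.59, 0.64 and 0.58 in the posterior and 0.52, 0.72 and 0.52 in the anterior portion. The relation of Hsd11b1 held in both strains (0.65 and 0.69 in the posterior portion of C57BL/6J and B6D2F1N), while that of Nr3c1 was absent within C57BL/6J (-0.08, against 0.88 within B6D2F1N). The adjusted p of Spearman's rho passed for Hsd11b1 in the posterior portion (0.0488) and for none of the other 5.

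**Figure D5:**
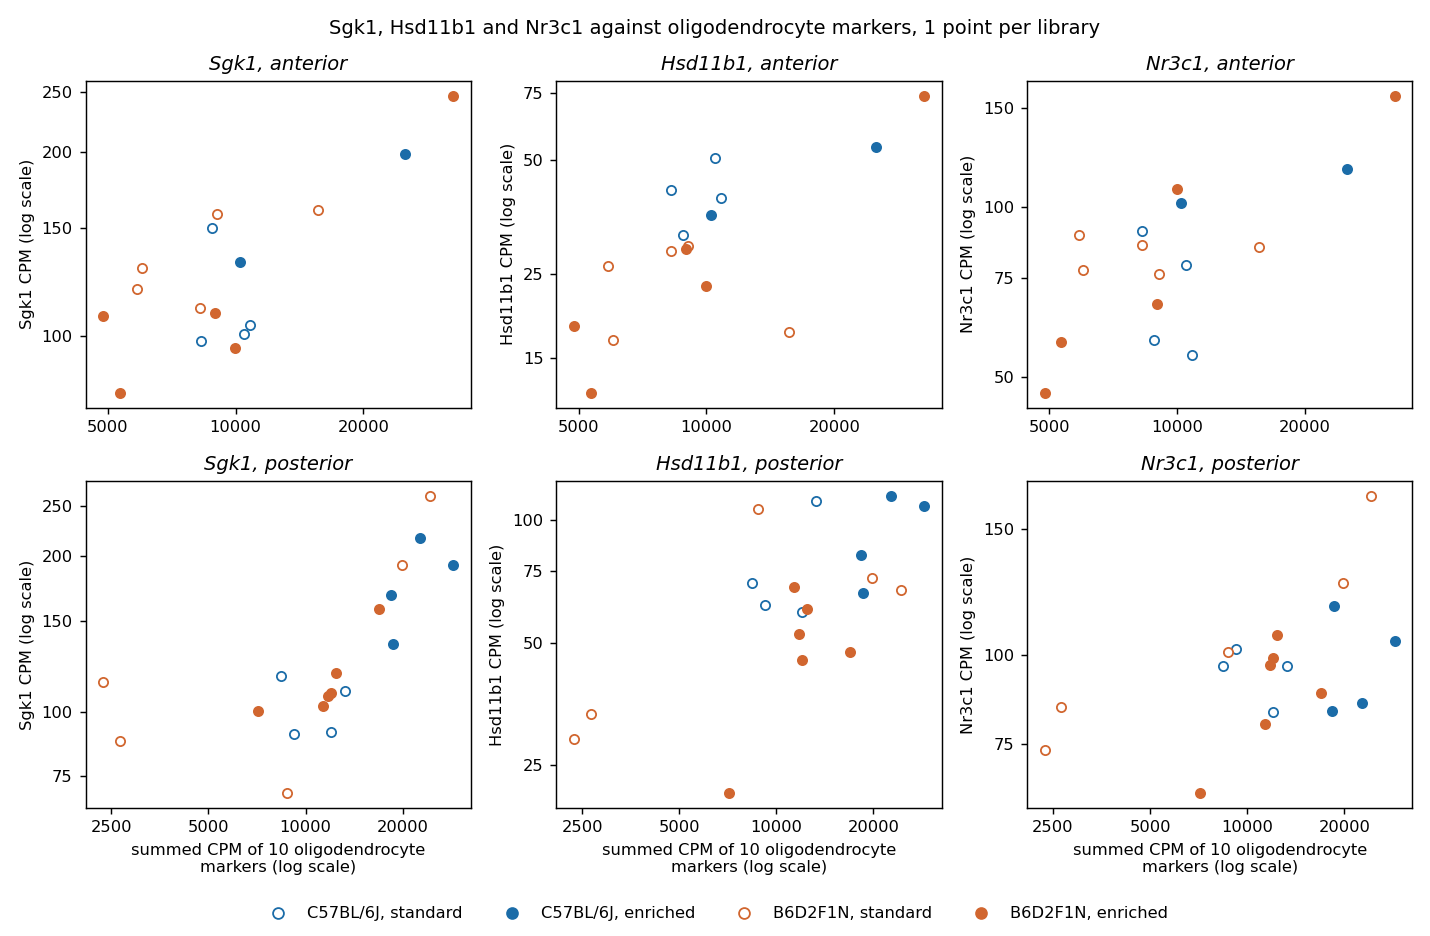
Level of Sgk1, Hsd11b1 and Nr3c1 in CPM (y axis, log scale) against the summed CPM of 10 oligodendrocyte markers (x axis, log scale), with 1 point per library, anterior above and posterior below. Values are shown with strain and housing means kept; the B6D2F1N enriched library at the upper right of the anterior panels, with 32564 CPM of markers, is the highest for all 3 genes.

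Zbtb16 and Nr3c2 moved against markers of striatal projection neurons, which lie beside the amygdala. In the posterior portion r was -0.78 for Zbtb16 (rho -0.76, permutation p = 7e-05, adjusted p = 0.0112) and -0.73 for Nr3c2 (rho -0.74, permutation p = 0.00046, adjusted p = 0.0245), and -0.77 and -0.64 without the 2 farthest mice. Both were negative in each strain, at -0.70 and -0.42 in C57BL/6J and -0.81 and -0.88 in B6D2F1N. Per1 and Fkbp5 moved against microglial markers in the posterior portion (r = -0.64 and -0.65, rho -0.69 and -0.67, permutation p = 0.00323 and 0.00303, adjusted p = 0.0414 for both by Pearson's r). Of the 8 posterior relations with marker lists that passed by Pearson's r, only 4 also passed by Spearman's rho. In the anterior portion, Sgk1 and Tsc22d3 moved with the choroid plexus and ependymal markers (r = 0.83 and 0.82, rho 0.60 and 0.47, permutation p = 0.00079 and 0.00098, adjusted p = 0.0253 and 0.0261), and without the 2 farthest mice r was 0.53 and 0.35. Neither relation passed by Spearman's rho. The anterior library of B6D2F1N enriched 1 was the highest for both genes (247 and 246 CPM) and for these markers (972 CPM). Fkbp5 was also correlated with the oligodendrocyte markers in the posterior portion by Pearson's r (0.62, permutation p = 0.00336, adjusted p = 0.0414), but not by Spearman's rho (0.33, adjusted p = 0.533), with r = 0.44 without the 2 farthest mice, -0.14 in C57BL/6J and 0.82 in B6D2F1N. All these relations are between levels in the same libraries, and which cells expressed a gene was not measured.

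Levels in both portions of the same mouse were also compared. Over the 16 mice, with strain and housing means removed, Pearson's r between portions lay from 0.050 for Nr3c2 to 0.32 for Nr3c1 and none passed a permutation test (smallest adjusted p = 0.66 over 8 genes). Over 11711 genes with a mean of at least 5 CPM, the median r was 0.12, with a 5th to 95th percentile range from -0.39 to 0.58, which holds all 8 values.

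Among 11822 genes compared, those whose log2 CPM was most like that of a member over the 19 posterior libraries were named by rank of r, as a description. Per1 was closest to Kcnab2 (r = 0.94), and Zbtb16 to Trappc9 (r = 0.94) and Aldh1l1 (r = 0.93), the latter a folate enzyme used as an astrocyte marker. Hsd11b1 was closest to Srd5a1 (r = 0.81), a steroid 5-alpha-reductase that also uses glucocorticoids as substrates, and Etnppl (r = 0.80). Fkbp5 was closest to Fbxo44 (r = 0.87), Il33 (r = 0.84) and Aldoc (r = 0.84), Nr3c1 to Amd1 (r = 0.86), Nr3c2 to Ppp2r1a (r = 0.87), Sgk1 to Osbpl1a (r = 0.82) and Tsc22d3 to Cited2 (r = 0.85). Since these genes were picked for a high r in the posterior libraries, some drop of r in the anterior ones follows from the choice. Whether r differed between the portions beyond that was not tested. Over the 16 anterior libraries r was 0.61 for Amd1, 0.63 for Etnppl, 0.56 for Aldh1l1, 0.44 for Trappc9, 0.39 for Srd5a1 and 0.35 for Kcnab2. It was 0.21 for Ppp2r1a, 0.15 for Aldoc, 0.11 for Il33, 0.11 for Osbpl1a, -0.060 for Fbxo44 and -0.38 for Cited2.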

How the data were processed

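Laser-captured amygdala tissue was sequenced by the authors as single-end reads of 72 bases. Per the labels and the submitters' processing notes, reads were trimmed with Trimmomatic 0.38, aligned with HISAT2 2.1.0 and counted per Ensembl gene with HTSeq 0.11.2. The deposited values are raw counts per gene, with 1 column per library. Rows that name no gene (no feature, ambiguous and the like) were left out. Symbols were taken from GENCODE M21, which named 52489 of 52636 genes.

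Members and lists were chosen with earlier results of these data known. CPM values were scaled with TMM factors, and log2 CPM had a prior count of 2. Genes whose counts summed to 10 or more across a comparison's libraries were tested with edgeR 4.0.16 (glmQLFit and glmQLFTest, R 4.3.3), with the mouse as a block between portions, since the labels name the mouse of each library, and with terms for strain and housing where both were in 1 fit. A gene was called at a Benjamini-Hochberg adjusted p of at most 0.05. DESeq2 1.42.0, other filters and size factors, and fits without single mice were alternatives. Scripts were tested on simulated data. Relations between levels over mice used 2-sided permutation tests (100000 resamples, SciPy 1.17.1). Promoter windows came from RefSeq. Depth was 16938534 to 27352623 counts. Of 595 library pairs, 0 had identical counts. The named genes are the 8 members, called genes of the fixed lists, and the genes closest to each member by r. Ranges within 2 SE are the log2 difference minus and plus 2 SE.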

Additional observations from a re-analysis of the deposited data

Results flagged for a closer look

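Among 56 sets of 4 to 6 libraries (8 genes in 7 groups), 6 had 1 library set apart from the rest by Dixon's 95% criterion, while 2.8 would be expected by chance if the sets were independent. Sets of different genes share libraries, and some libraries were flagged for more than 1 gene, so an excess was not tested. In the anterior libraries of enriched B6D2F1N mice, mouse 1 stood high for Sgk1 (247 CPM, others 80.6 to 109 CPM) and for Hsd11b1 (73.7 CPM, others 12.1 to 29.0 CPM). That library also had the highest oligodendrocyte marker sum of all (32564 CPM) and the highest choroid plexus and ependymal sum of the anterior libraries (972 CPM). In the posterior libraries of enriched B6D2F1N mice, mouse 4 stood high for Sgk1 (158 CPM, others 100.2 to 119 CPM). In the anterior libraries of standard C57BL/6J mice, mouse 3 stood high for Sgk1 (150.2 CPM, others 98.0 to 104 CPM) and for Zbtb16 (24.1 CPM, others 19.2 to 19.8 CPM). In the posterior libraries of enriched C57BL/6J mice, mouse 3 stood low for Fkbp5 (22.0 CPM, others 32.0 to 32.2 CPM).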

How the results depend on the processing

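Of 752 log2 differences of the 8 genes under other settings, 726 kept their sign and their side of the threshold, 5 kept the sign and became called, and 21 changed sign. Of 1368 with 1 mouse left out, 1260 kept both, 3 lost a call, 2 gained one and 103 changed sign, over 42 differences. Of those that changed sign, 0 were called before or after. Of the 8 genes, 2 were called between portions in C57BL/6J (1 to 2 with single mice left out) and 1 in B6D2F1N (1 to 2). The fit of both strains, added after seeing the data, called 3. Between housings in the C57BL/6J posterior portion, DESeq2 called 1 where edgeR called 0, and between strains over both housings in the anterior portion 0 to 1 were called with single mice left out. Without the replicate block, the counts between portions stayed at 2 and 1, with 706 and 1172 calls over all genes, and it changed no call among the 8. Over all genes, DESeq2 called 1535 against edgeR's 937 and 1994 against 1110 between portions (2532 for both strains in 1 fit). Between strains it called 254, 392, 137 and 342 against 90, 94, 15 and 101, and 358 and 532 against 162 and 239 over both housings. Between housings it called 100, 319, 8 and 13 against 0, 4, 0 and 0, and 70 and 2 against 0 over both strains. Between bias classes it called 21 and 19 against 1 and 1. With all genes of at least 1 count, edgeR called 274 and 112 between housings in C57BL/6J, 57 between strains in enriched anterior libraries and 22 and 79 between bias classes. The causes were not tested. Without terms for strain and housing, the bias class differences that changed sign were Nr3c2 -0.27, Sgk1 -0.28 and Per1 -0.35 in anterior and Nr3c1 0.017, Nr3c2 -0.49, Fkbp5 -0.19, Sgk1 -0.18, Tsc22d3 -0.10 and Per1 -0.52 in posterior libraries, and Hsd11b1 in posterior libraries was -0.74 in place of -1.36. Fkbp5 there was -0.0048 with DESeq2 and -0.0050 with its size factors in edgeR. The portion difference of Zbtb16 in C57BL/6J was 0.0016 and 0.0016 in the same settings, 0.0064 with the filterByExpr filter and 0.11 with both strains in 1 fit. Without the replicate block, portion differences that changed sign were Zbtb16 0.056, Sgk1 0.0089 and Per1 0.0057 in C57BL/6J and Per1 0.014 in B6D2F1N. With 4 groups in 1 fit, Zbtb16 between strains in standard anterior libraries was 0.011, and with all genes of at least 1 count Fkbp5 between housings in posterior B6D2F1N libraries was -0.0063. Between the portions of a mouse, r was -0.016 for Tsc22d3 without TMM factors and -0.019 for Fkbp5 with strain and housing means kept. The ranges with single mice left out that crossed 0 were as follows. Between portions in C57BL/6J, the range was Zbtb16 -0.13 to 0.18, Per1 -0.20 to 0.034 and Sgk1 -0.088 to 0.13. Between portions in B6D2F1N, the range was Sgk1 -0.17 to 0.093, Per1 -0.084 to 0.050 and Fkbp5 -0.036 to 0.16. Between strains in standard anterior libraries, the range was Zbtb16 -0.14 to 0.13 and Per1 -0.081 to 0.24. Between strains in standard posterior libraries, the range was Zbtb16 -0.22 to 0.22 and Nr3c2 -0.26 to 0.16. Between strains in enriched anterior libraries, the range was Nr3c2 -0.33 to 0.66 and Fkbp5 -0.26 to 0.048. Between housings in anterior C57BL/6J libraries, the range was Hsd11b1 -0.20 to 0.41 and Nr3c2 -0.077 to 0.80. Between housings in posterior C57BL/6J libraries, the range was Nr3c1 -0.021 to 0.14. Between housings in anterior B6D2F1N libraries, the range was Nr3c1 -0.23 to 0.24, Nr3c2 -0.12 to 0.60, Hsd11b1 -0.20 to 0.60 and Sgk1 -0.46 to 0.044. Between housings in posterior B6D2F1N libraries, the range was Fkbp5 -0.086 to 0.12, Per1 -0.045 to 0.25, Zbtb16 -0.094 to 0.37, Nr3c2 -0.067 to 0.36 and Tsc22d3 -0.26 to 0.029. For strain over both housings in anterior libraries, the range was Sgk1 -0.14 to 0.18, Per1 -0.13 to 0.057 and Nr3c1 -0.11 to 0.11. For strain over both housings in posterior libraries, the range was Nr3c1 -0.054 to 0.10, Sgk1 -0.26 to 0.0088, Per1 -0.14 to 0.11 and Tsc22d3 -0.12 to 0.074. For housing over both strains in anterior libraries, the range was Sgk1 -0.067 to 0.24, Fkbp5 -0.17 to 0.052, Zbtb16 -0.22 to 0.11, Tsc22d3 -0.18 to 0.056 and Hsd11b1 -0.074 to 0.43. For housing over both strains in posterior libraries, the range was Tsc22d3 -0.014 to 0.18 and Hsd11b1 -0.15 to 0.10. For bias class in anterior libraries, the range was Fkbp5 -0.23 to 0.24. For bias class in posterior libraries, the range was Fkbp5 -0.26 to 0.086, Per1 -0.0035 to 0.44 and Zbtb16 -0.88 to 0.031. Without B6D2F1N standard 1, the bias term could not be estimated.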
